A study of Homo sapiens with 32 samples.

Results

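The response of the human lymphoma line TMD8 to 3 h of CSK inhibition was described across 12017 of the 25066 features (47.9%) in the normalised expression table. A feature was included when its mean log2 value over the 4 TMD8 libraries at 3 h was 5 or more, whatever its change. The 4 libraries were a pair treated with 500 nM of a CSK inhibitor, named CSKi in the labels, and a pair treated with the vehicle DMSO. They came from a study of 32 RNA sequencing libraries of the diffuse large B-cell lymphoma lines TMD8 and DOHH2, each given CSKi or DMSO for 1, 3, 6 or 24 h in duplicate. Cells of both lines, in every group, carried an engineered Cas9, and grew in advanced RPMI medium with serum. Duplicates are labelled as bio replicates, with no word on whether separate cultures were used, so p-values measure the spread between duplicate libraries, which may be technical. That spread was pooled over the 16 TMD8 libraries of all times, or over all 32 libraries for DOHH2 and for differences between lines. Levels are log2 of normalised read counts, and a change is the CSKi mean minus the DMSO mean on that scale, given with the standard error (SE) of the fit and n = 2 libraries per group throughout.

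CSK, the C-terminal Src kinase, phosphorylates the tail tyrosine of Src family kinases and so holds them in a closed, inactive form. In B cells the Src family kinase LYN acts near the B cell receptor on both sides of signalling: it phosphorylates the activating motifs of CD79A and CD79B, and also the inhibitory motifs of receptors such as CD22 and CD72, which recruit the phosphatase SHP-1, the product of PTPN6. TMD8 belongs to the activated B cell type of this lymphoma, which is known to rely on chronic receptor signalling to NF-kB. The comparison asks which transcripts differ after 3 h of CSK inhibition.

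The libraries showed the B cell identity of the label. The 4 libraries held 14055255 to 17420599 mapped reads, and the member with the fewest reads had 19.8 per library on average. All 9 B cell markers looked for, such as MS4A1, CD79A and PAX5, and all 16 activated B cell type markers, such as IRF4 and BATF, had a mean log2 of 5 or more. Of 14 germinal centre B cell type markers 10 did, and MME was at 0 in all 4 libraries. Of 15 T and NK cell markers 13 had under 20 reads in every library, with CD3D, CD3E and CD2 at 0. Their summed level was 6.73 to 6.77 on the log2 scale in DMSO and 6.73 to 6.98 after CSKi. The summed level of 13 myeloid markers was 12.55 to 12.57 in DMSO and 12.58 to 12.60 after CSKi, carried by CD68 and ITGAX, while S100A8, S100A9, MPO and FCN1 were at 0. The 15 fibroblast and epithelial markers summed to 11.93 to 11.95 and 12.10 to 12.13, nearly all of it from CDH1, which rose by 0.21 ± 0.05, and EPCAM, KRT18, KRT19 and CDH5 were at 0.

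After 3 h of CSKi the transcription factor EGR2, the cytokines IL10 and TNF, EGR1, the activation marker CD69 and the ERK phosphatase DUSP2 had the largest falls, each of 4-fold or more, while the called rises were smaller. By limma with Benjamini-Hochberg adjustment over all 12017 features, 563 (4.69%) were called at an adjusted p under 0.05. Of these, 387 were lower (3.22% of features tested) and 176 higher (1.46%). The median change was -0.32 among the lower (1.25-fold) and 0.28 among the higher (1.22-fold), against 0.01 over all features tested. At least 1.5-fold, 68 were lower and 17 higher. At least 2-fold, 25 were lower and 0 higher, and 6 were lower by 4-fold or more. The values of the groups did not overlap in 6079 features (50.6%), among them all 563 called, so that separation of the pairs alone says little here. In RNA of whole cultures, fewer cells with a transcript and less of it per cell cannot be told apart. Unadjusted, 1974 features had a p under 0.05. The count rests on every library: 253 features were called without DMSO replicate 1, 311 without DMSO replicate 2, 260 without CSKi replicate 1 and 264 without CSKi replicate 2. A fit of the 4 libraries alone called 1193, of which 670 were lower.

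**Figure D1:**
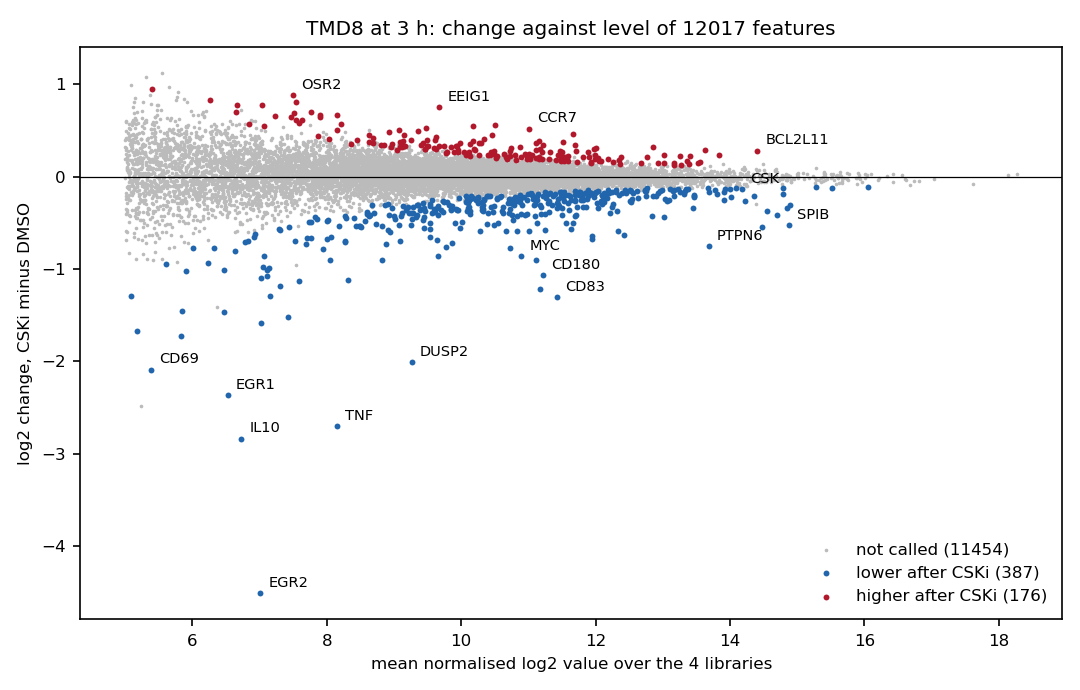
Change at 3 h (CSKi minus DMSO, log2) against the mean normalised log2 value over the 4 libraries, 1 point per feature. Blue points are the 387 features called lower, red points the 176 called higher and grey points those not called. The falls reach -4.51 (EGR2), whereas the called rises stay under 1.

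Immediate early transcription factors are genes that a cell transcribes within minutes of a receptor signal, without new protein synthesis. Of 22 such genes, 16 passed the level minimum, 9 fell (56.2%) and 0 rose, with a list median of -0.28. Over all features tested 3.22% were lower and 1.46% higher, the shares to set beside this and every later list count at 3 h. EGR2, a zinc finger factor of this kind that restrains lymphocyte activation, had values of 9.22 and 9.29 in DMSO and of 4.36 and 5.14 after CSKi, or 371 and 327 reads, recovered from the table, against 13 and 23. The groups lay far apart, and the CSKi duplicates themselves differed by more than those of DMSO. EGR2 fell by 4.51 ± 0.17 (22.7-fold, adjusted p = 7.0e-16 by limma), the largest fall of all. Its relative EGR1 stood at 7.78 and 7.64 in DMSO and at 5.36 and 5.32 after CSKi, and fell by 2.37 ± 0.16 (5.16-fold). EGR3 fell by 1.46 ± 0.22. The nuclear receptors NR4A1 and NR4A3, induced by antigen receptor signals, fell too. NR4A1 went from 6.18 and 6.96 to 4.91 and 5.32, and NR4A3 from 7.88 and 7.92 to 6.62 and 6.81, changes of -1.46 ± 0.22 and -1.18 ± 0.13. MYC, a transcription factor that drives cell growth, whose DMSO values were 11.39 and 11.27, had 10.52 and 10.41 after CSKi, and fell by 0.86 ± 0.06 (1.82-fold, adjusted p = 7.1e-11). JUN (-0.38), IER2 (-0.34) and the serum response factor gene SRF (-0.17) completed the 9. The uncalled members included JUNB (-0.22, adjusted p = 0.20), ATF3 (0.19, 0.17) and NR4A2 (0.30, 0.50).

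The bases before the start sites of EGR1, EGR2, TNF and IL6 are shown, since serum response factor and NF-kB are known regulators of genes of this kind. They were chosen among the 12 largest falls after the matches were seen, as a pair with a match and a pair with none. Sequences are from RefSeq (GRCh38.p14), 250 bases before the annotated start on the gene's strand. Both strands were searched for the CArG box, to which SRF binds, the NF-kB motif, TGACGTCA and TGANTCA, and capitals mark the matches. EGR1 lies at chr5:138465229-138465478 (plus strand), EGR2 at chr10:62819168-62819417 (minus strand), TNF at chr6:31575315-31575564 (plus strand) and IL6 at chr7:22726950-22727199 (plus strand).
EGR1: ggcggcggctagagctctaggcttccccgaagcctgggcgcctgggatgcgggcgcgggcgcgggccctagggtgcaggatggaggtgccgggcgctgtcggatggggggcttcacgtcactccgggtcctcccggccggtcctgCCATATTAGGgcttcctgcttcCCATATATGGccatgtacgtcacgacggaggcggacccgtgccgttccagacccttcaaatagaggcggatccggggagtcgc
EGR2: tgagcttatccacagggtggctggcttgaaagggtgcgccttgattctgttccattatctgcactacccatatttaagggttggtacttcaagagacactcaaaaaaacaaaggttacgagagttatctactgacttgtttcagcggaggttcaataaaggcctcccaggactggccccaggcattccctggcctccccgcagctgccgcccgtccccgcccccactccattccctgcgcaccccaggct
TNF: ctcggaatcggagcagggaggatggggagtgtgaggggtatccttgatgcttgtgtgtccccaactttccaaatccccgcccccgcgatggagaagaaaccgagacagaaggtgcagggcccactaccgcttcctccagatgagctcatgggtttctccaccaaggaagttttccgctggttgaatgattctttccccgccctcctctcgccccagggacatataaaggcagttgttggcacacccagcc
IL6: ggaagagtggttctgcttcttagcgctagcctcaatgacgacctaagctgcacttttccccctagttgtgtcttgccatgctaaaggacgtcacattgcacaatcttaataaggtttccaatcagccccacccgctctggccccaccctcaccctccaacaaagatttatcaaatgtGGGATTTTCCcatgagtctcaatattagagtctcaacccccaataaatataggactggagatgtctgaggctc

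The EGR1 window held 2 CArG boxes, from base -105 to -96 and from -83 to -74 counted from the start, and the IL6 window held 1 NF-kB motif from -73 to -64. None of these motifs occurred in the EGR2 and TNF windows, which says only that those letters are not in this stretch. Of the other largest falls with a window, PDCD1 held 2 overlapping NF-kB matches, 1 on each strand, and IL10, DUSP2 and NR4A1 held none of the 4 motifs. Of the 12017 features 9328 had such a window. A CArG box was in 7 of 295 windows of lower features (2.37%), in 6 of 142 of higher features (4.23%) and in 101 of 9328 in all (1.08%). The NF-kB motif was in 6.44% of lower, 5.63% of higher and 5.81% of all tested. TATAAA was in 29 of 295 lower windows (9.83%), in 4.23% of higher and in 5.18% of all tested, and in 11.1% of the 27305 windows in the RefSeq table. CCGGAAGT was in 4.07% of lower, 4.93% of higher and 7.94% of all tested. TGACGTCA was in 1.69, 0.00 and 2.97%, TGANTCA in 3.05, 4.23 and 3.64%, and CACGTG in 9.15, 10.6 and 9.27% of lower, higher and all tested windows.

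Of 11 genes tested that damp or follow ERK signalling 4 fell, 0 rose and 7 were not called (median -0.37). DUSP2, which dephosphorylates ERK in the nucleus, had 10.30 and 10.23 in DMSO and 8.14 and 8.38 after CSKi, and fell by 2.01 ± 0.10 (4.02-fold, adjusted p = 1.1e-13). SPRED1 and SPRED2, membrane proteins that block RAF activation, fell by 0.70 ± 0.13 and 0.65 ± 0.09. PHLDA1 changed by -0.29 ± 0.08, a call lost without any of the 4 libraries. ETV4 (-0.63), ETV5 (-0.52) and DUSP7 (-0.37) had adjusted p of 0.18, 0.48 and 0.30. Of 15 factors that destabilise mRNA 4 fell: ZFP36 (-0.34 ± 0.05) and ZFP36L1 (-0.42 ± 0.05), which bind AU-rich elements of cytokine transcripts, the endonuclease gene ZC3H12A (-0.40 ± 0.06) and BTG2 (-0.22 ± 0.03), a deadenylation factor. None of the 15 rose, and the list median was -0.06.

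After EGR2, the largest falls were those of the cytokines IL10 and TNF. TNF, which signals through NF-kB, had 9.50 in both DMSO libraries and 6.71 and 6.89 after CSKi, and fell by 2.70 ± 0.12 (6.51-fold, adjusted p = 1.0e-14). Its neighbours in the same gene family LTA and LTB, which build lymphoid tissue, went from 7.76 and 7.85 to 6.57 and 6.45 and from 9.77 and 9.88 to 9.33 and 9.18. With the receptor CD40 (-0.25 ± 0.05), these were the 4 of 18 TNF family ligands and receptors that fell, and 0 rose (median -0.03). IL10, an interleukin with growth effects on B cells, had 8.11 and 8.19 in DMSO and 5.25 and 5.38 after CSKi, and fell by 2.84 ± 0.15 (7.14-fold). IL6 had 6.90 and 6.49 in DMSO and 4.47 and 5.48 after CSKi, so that its 2 CSKi libraries differed by about as much as the nearest values of the groups. Its change was -1.72 ± 0.25, -2.23 without CSKi replicate 2 and -1.22 without CSKi replicate 1. Of 20 interleukins and their receptors 6 fell and 0 rose (median -0.12). The others were the receptors IL21R (-0.65 ± 0.04), IFNGR1 (-0.43) and IL4R (-0.25) and the precursor cytokine IL16 (-0.33 ± 0.04). None of 4 chemokines tested was called: CXCL10 (-0.46), CCL17 (-0.35), CCL22 (-0.02) and CXCL13 (0.00) had adjusted p of 0.43 to 1.

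Receptors that guide B cell position moved in both directions. CCR7, which draws lymphocytes to the T cell zone, rose from 10.72 and 10.77 to 11.29 and 11.24 (0.52 ± 0.06), and CXCR4 rose from 10.01 and 9.78 to 10.46 and 10.43 (0.55 ± 0.08). CXCR5, which draws them to follicles, fell from 11.42 and 11.34 to 11.04 and 10.93 (-0.40 ± 0.05). Of 18 chemotactic receptors and RGS proteins 7 fell and 2 rose (median -0.12). The G protein regulators RGS2 (-0.70 ± 0.09), RGS19 (-0.33), RGS14 (-0.38) and RGS13 (-0.32) and the receptors GPR18 (-0.45) and GPR183 (-0.36) were the remaining falls.

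Changes of CSK itself and of the receptor pathway were small. CSK had 14.25 and 14.25 in DMSO and 14.16 and 14.07 after CSKi, a change of -0.14 ± 0.03 (adjusted p = 0.022 by limma) that was called with all 4 libraries and lost without 3 of them. LYN had 14.33 and 14.27 against 14.21 and 14.17 (-0.11 ± 0.04, adjusted p = 0.10). Of 18 genes of the Src family and its regulators 4 fell and 0 rose (median -0.07): CSK, the SHP-2 adaptor SIT1 (-0.42 ± 0.06), and PTK2B (-0.22) and SLA (-0.21), whose calls were lost without any 1 library. Of 34 receptor signalling components 3 fell (8.8%, against 3.22% of all features) and 1 rose (2.9%, against 1.46%), with a median of -0.01. BLNK (-0.22), GAB2 (-0.31) and PIK3AP1 (-0.15) fell and VAV2 (0.14) rose. Of these 4 the call of BLNK alone held without each library. CD79A (-0.07), CD79B (0.08), SYK (0.04), BTK (-0.03) and PLCG2 (0.00) were not called.

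On the inhibitory side of the pathway, PTPN6 had the clearest change. Of 31 inhibitory receptors, adaptors and phosphatases 8 fell and 1 rose (median -0.04). PTPN6, the gene of SHP-1, which removes phosphate from receptor motifs, stood at 14.07 and 14.05 in DMSO and at 13.32 and 13.29 after CSKi. Its duplicates lay close together, and it fell by 0.75 ± 0.03 (1.68-fold, adjusted p = 3.4e-15). CD72, an inhibitory coreceptor, fell by 0.51 ± 0.04, and PTPN7, a phosphatase of ERK and p38, by 0.57 ± 0.05. LAIR1, an inhibitory collagen receptor, had 8.20 and 8.11 in DMSO and 6.83 and 7.22 after CSKi, and fell by 1.13 ± 0.16. LILRB4 (-0.26), FCRL5 (-0.19), DOK1 (-0.25) and DOK3 (-0.20) also fell, and CEACAM1 rose by 0.43. PDCD1, the gene of the inhibitory receptor PD-1, was among the 12 largest falls, from 8.10 and 8.25 to 6.77 and 6.55 (-1.51 ± 0.17, adjusted p = 6.0e-07). CD22 (-0.05), FCGR2B (0.15), INPP5D (-0.02) and PTPN22 (0.16) were not called.

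Of 26 NF-kB subunits, inhibitors and targets 9 fell and 1 rose, with a median of -0.11. The members called were mostly the subunits and their own inhibitors. NFKB1 (-0.28 ± 0.04), NFKB2 (-0.17) and REL (-0.29) fell, as did the inhibitors NFKBIA (-0.25), NFKBIE (-0.29) and NFKBID, which went from 10.07 and 10.26 to 9.38 and 9.42 (-0.77 ± 0.07). TNFAIP8 (-0.56 ± 0.05), TNFAIP3 (-0.16), which trims ubiquitin chains in the pathway, and PLEK (-0.42 ± 0.03) fell, and BCL3 rose by 0.27. RELA (-0.13), RELB (-0.10), BIRC3 (0.11) and TRAF1 (-0.04) had adjusted p of 0.12 to 0.88. Of 16 genes of the Toll-like receptor pathway 4 fell and 0 rose (median -0.04), and the 4 were receptors. TLR9 (11.95 and 11.87 to 11.53 and 11.47) and TLR7 (9.27 and 9.21 to 8.54 and 8.48), which sense nucleic acids in endosomes, fell by 0.41 ± 0.05 and 0.73 ± 0.10. TLR10 (-0.46) and TLR1 (-0.63) were called as well and lost without 3 and 2 of the libraries. MYD88 (-0.06), IRAK1 (0.03) and IRAK4 (0.03) were not called.

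Several surface molecules of B cell activation fell. CD83, a marker of activated and germinal centre B cells, had 12.10 and 12.07 in DMSO and 10.71 and 10.84 after CSKi, and fell by 1.31 ± 0.05 (2.48-fold, adjusted p = 3.4e-15). CD180, a Toll-like receptor relative that promotes B cell growth, had 11.79 and 11.72 against 10.72 and 10.65, and fell by 1.07 ± 0.05 (2.10-fold). CD69, an early activation marker, went from 6.36 and 6.49 to 4.25 and 4.43 (-2.09 ± 0.27). In each the groups were separated by many times the distance between duplicates. Of 21 such molecules 6 fell, also CD53 (-0.43 ± 0.04), the lipid antigen presenter CD1C (-0.55) and ICOSLG (-0.65), and 3 rose (median -0.03). The rises were the costimulators CD80 (0.38) and CD86 (0.19) and SLAMF6 (0.69 ± 0.15), the last lost without 2 of the libraries. In the MHC class II list 1 of 16 fell (6.2%, against 3.22% of all features), with 0 rises and a median of -0.03. It was the transactivator CIITA (11.20 and 11.04 to 10.55 and 10.52, -0.59 ± 0.07). HLA-DRA (-0.03), HLA-DPB1 (-0.01) and CD74 (-0.05) were not called.

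Of 42 B lineage transcription factors 6 fell and 1 rose, with a median of 0.02. SPIB, an ETS factor of mature B cells, had 15.16 and 15.12 in DMSO and 14.67 and 14.56 after CSKi, and fell by 0.53 ± 0.04 (adjusted p = 1.2e-10). LMO2, a germinal centre factor, fell by 0.77 ± 0.06 and ZBTB32 by 0.85 ± 0.08. PRDM1 (-0.33 ± 0.05) and XBP1 (-0.34), which drive plasma cell differentiation, fell, and so did BATF (-0.26), whose call was lost without 2 of the libraries. ETS1 rose by 0.23. The other 35 were not called, among them PAX5 (-0.04), EBF1 (0.09), IRF4 (-0.08), IKZF1 (-0.10), BCL6 (0.14) and SPI1 (-0.01). NFATC1, a calcium-driven factor, fell by 0.59 ± 0.07. In its list of 24 calcium and NFAT genes 2 fell and 2 rose (median 0.03), the others being the calcineurin regulator RCAN1 (-0.41) and the calcium channel genes ORAI2 (0.27 ± 0.05) and ORAI3 (0.37). The calls of RCAN1 and ORAI3 were each lost without 3 of the libraries.

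Some growth genes showed small falls beside that of MYC. Of 33 ribosome biogenesis genes 13 fell and 0 rose (39.4% against 3.22% of all features), with a median of -0.13. RRS1 went from 10.85 and 10.79 to 10.40 and 10.44 (-0.40 ± 0.06), and NOP2 (-0.21 ± 0.04), NOP56 (-0.21 ± 0.04) and the RNA polymerase I and III subunit POLR1C (-0.29 ± 0.06) fell. The other 9 changes ran from -0.35 (LYAR) to -0.15 (PES1). Of 25 MYC partners and growth targets 4 fell (ODC1 -0.26, PPRC1 -0.22, CCND2 -0.15, EIF4A1 -0.12) and 0 rose (median -0.05), with the call of ODC1 alone held without each library. Of 23 PI3K and mTOR genes 2 fell (8.7%, against 3.22% of all features) and 1 rose (4.3%, against 1.46%). SGK1 fell from 9.01 and 8.73 to 7.68 and 7.83 (-1.12 ± 0.11) and the PI3K subunit gene PIK3CG by 0.36 ± 0.07. PIK3R1 rose by 0.29, lost without 2 libraries, and the subunit gene PIK3CD (-0.07) was not called. KLF2 (-0.69 ± 0.07), a quiescence factor, was the clearest of 2 falls among 22 FOXO and quiescence genes, beside TRIB1 (-0.31) and a rise of KLF13 (0.17), both lost without 3 of the libraries.

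Stress and lipid lists had smaller median falls than the ribosome biogenesis list (-0.13), though larger than the MYC partner and target list (-0.05). Of 22 unfolded protein response genes 4 fell and 0 rose (median -0.08), led by the chaperone HSPA5 (-0.26 ± 0.03), whereas the calls of CALR (-0.14), PDIA4 (-0.18) and FKBP11 (-0.25) were lost without 3 or 4 of the libraries. SQLE (-0.24) and FASN (-0.20) fell among 23 cholesterol and fatty acid genes (0 rose, median -0.11), and both calls were lost without 2 of the libraries. Of 23 amino acid and ATF4 genes 6 fell and 0 rose (median -0.10), among them the arginine transporter SLC7A1 (-0.34 ± 0.03), SLC1A4 (-0.36 ± 0.06) and CHAC1 (-0.81). None of 15 heat shock genes (median -0.08) and none of 29 G1/S genes (median -0.01) was called. Among 23 glycolysis genes HK2 fell by 0.27 ± 0.04 and BNIP3L rose by 0.26, lost without 3 of the libraries. Each was 4.3% of that list, against 3.22% lower and 1.46% higher of all features. Of 31 integrin and actin genes 6 fell and 0 rose (median -0.09), with VASP at -0.37 ± 0.05, CORO1A at -0.26 ± 0.04 and RAC2 at -0.21 ± 0.04. Of 15 p53 targets PLK3 alone was called (-0.59 ± 0.06).

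The BCL2 family split by direction. Of 15 members 3 fell and 3 rose (median -0.05). BCL2A1 and BCL2L1, which protect cells from death, fell by 0.67 ± 0.05 and 0.37. The death-promoting BIK fell from 7.91 and 7.71 to 6.33 and 6.11 (-1.58 ± 0.17, 3.00-fold). The other 3 called members, which also promote death, rose: BCL2L11 (BIM) from 14.27 and 14.25 to 14.54 and 14.55 (0.28 ± 0.03), BMF from 11.37 and 11.51 to 11.81 and 11.99 (0.46 ± 0.06), and BBC3 (PUMA) by 0.45. BCL2 (0.10), MCL1 (0.02), BAX (-0.05) and PMAIP1 (-0.06) were not called. The PIM survival kinases split as well. PIM2 (0.32 ± 0.04) and PIM1 (0.31 ± 0.04) rose and PIM3 (-0.51 ± 0.07) fell. The feedback inhibitor SOCS3 fell as well (-0.39 ± 0.07), in a list of 17 JAK, STAT, PIM and SOCS genes with a median change of -0.01.

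Rises were spread over genes of varied function. EEIG1 (FAM102A in the table), an oestrogen-induced gene, had 9.34 and 9.26 in DMSO and 10.10 and 10.01 after CSKi, a rise of 0.75 ± 0.07 (1.68-fold, adjusted p = 1.1e-07). It was the single gene among the 12 largest rises called without each library, compared with 11 of the 12 largest falls. The exception among the falls was the protease gene ASTL, from 5.69 and 6.33 to 4.25 and 4.43 (-1.67 ± 0.33), whose adjusted p was 0.082 without DMSO replicate 2. The other rises were LOC728743 (0.94), the zinc finger genes OSR2 (0.88), ZNF860 (0.82) and ZNF516 (0.69 ± 0.19), GPR146 (0.80), LRRC37B (0.77), which has near-identical copies among which reads may be split, HOXC6 (0.77), the arrestin gene ARRDC3 (0.69), SLAMF6, ZC3H6 (0.67) and the splicing factor MBNL2 (0.66). Of 34 G2/M genes 6 rose and 0 fell, with a median of 0.13. TOP2A, which untangles DNA, rose from 13.29 and 13.30 to 13.51 and 13.52 (0.22 ± 0.04), a call held without each library, and those of CENPF (0.20), KIF20A (0.23) and NEK2 (0.26) were lost without 3 or 4 of the libraries. Of 33 interferon response genes 5 rose and 0 fell, with a median of 0.12. OAS1, a sensor of double-stranded RNA, went from 11.35 and 11.33 to 11.69 and 11.73 (0.37 ± 0.05) and OAS2 from 10.94 and 10.92 to 11.27 and 11.32 (0.36 ± 0.05), both called without each library. The call of SAMD9 (0.31) and that of 1 other of the 5 were lost without any 1 library, and DDX60 (0.33) had an adjusted p of 0.046, while ISG15 (0.01), MX1 (0.17) and IRF7 (-0.03) were not called. Zinc finger genes named ZNF had 3 falls and 4 rises among 326 (median 0.04), and of 17 snoRNA host genes SNHG15 (C7orf40 in the table) alone was called (-0.52 ± 0.06).

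**Figure D2:**
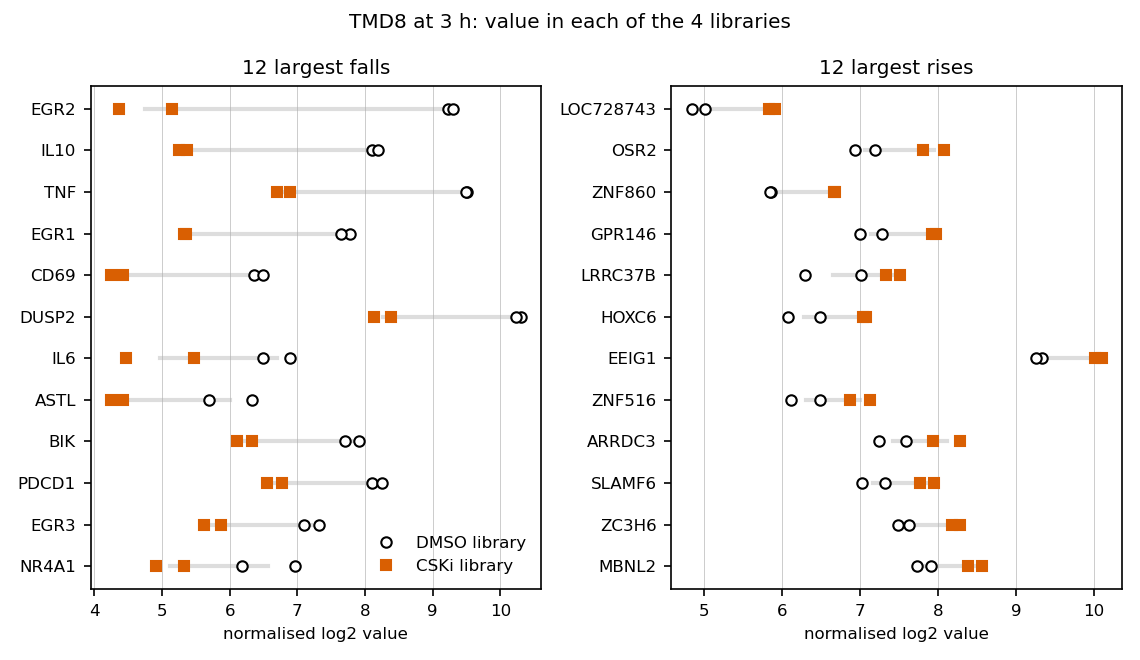
Normalised log2 value of the 12 largest falls (left) and the 12 largest rises (right) in each DMSO library (open circles) and each CSKi library (orange squares), with grey bars joining group means. Genes were taken only where the groups do not overlap, and the change is largest for EGR2.

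**Figure D3:**
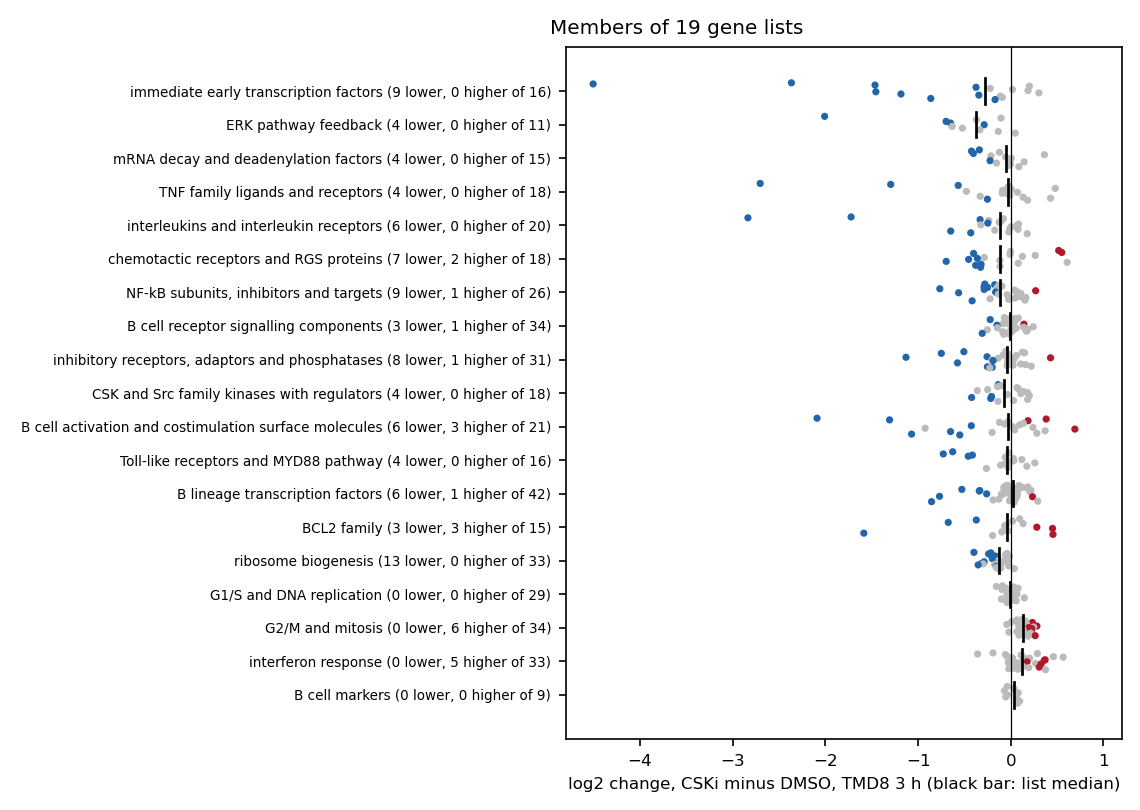
Change of each tested member of 19 gene lists (log2, CSKi minus DMSO). Blue points were called lower, red points called higher, grey points were not called and black bars are list medians. Immediate early and ERK feedback genes have the lowest medians (-0.28 and -0.37), and G2/M and interferon genes the highest (0.13 and 0.12).

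Few of these changes were seen at 1 h. At that time 6 features were called (0.0499%), and 5 of them were among the 387 lower at 3 h. The features lower at 3 h had a median change of -0.01 at 1 h, and those higher had 0.00. EGR2 (-2.02), TNF (-1.89), EGR1 (-1.25), DUSP2 (-0.85 ± 0.10) and ZFP36L1 (-0.28 ± 0.05) had fallen by then. A test of the difference between the responses at 3 and 1 h called 201 features (1.67%), of which 146 were among the 387 lower at 3 h and 44 among the 176 higher. PTPN6 changed by 0.02 at 1 h and -0.75 at 3 h, CD83 by -0.14 and -1.31, CD180 by 0.02 and -1.07, and MYC by 0.01 and -0.86. All 4 differences passed the test. Among the rises CCR7 (-0.09 at 1 h) and BCL2L11 (-0.05 at 1 h) passed it too.

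By 6 h the same genes were mostly still changed. At 6 h 1519 features were called (12.6%), 839 lower (6.98%) and 680 higher (5.66%). Of the 387 lower at 3 h, 297 were also lower at 6 h (76.7% of the 3 h list and 35.4% of the 6 h list), and of the 176 higher, 113 were higher (64.2 and 16.6%). None was called in the opposite direction. The median change was -0.32 at both times for the lower features. The responses differed in 48 features (0.399%). EGR2 was lower at 3 h (-4.51) than at 6 h (-2.60), and so were BTG2, IL16, SPIB and TLR9, whose changes at 6 h were 0.00, -0.02, -0.29 and -0.09. PTPN6 fell further, to -1.22 at 6 h, as did CD53 (-0.79), RGS13 (-0.88) and SLC7A1 (-0.59), and ORAI2 rose further (0.70). Ribosome biogenesis genes with a fall went from 13 of 33 at 3 h to 28 at 6 h and 33 at 24 h, when 26.1% of all features were lower, and their median from -0.13 to -0.27 and -0.46.

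At 24 h the features lower at 3 h had split by direction. Over the same features 6480 were called at 24 h (53.9%), 3136 lower (26.1%) and 3344 higher (27.8%), and 4317 responses differed from those at 3 h (35.9%). Of the 387 lower at 3 h, 200 were lower at 24 h (51.7% of the 3 h list and 6.4% of the 24 h list). A further 87 of the 387 were higher, a smaller share than the 27.8% of all features. LTB went from -0.57 at 3 h to 0.60 at 24 h, SPIB from -0.53 to 0.37, CD72 from -0.51 to 0.46, TLR7 from -0.73 to 0.43 and BTG2 from -0.22 to 0.74. CD180 had a change of -0.05 at 24 h. Of the 176 higher at 3 h, 138 stayed higher (78.4% and 4.1%) and 7 were lower, and their median rose from 0.28 to 0.51. CCR7 reached 1.34, BMF 1.45 and OAS1 1.37. G2/M genes went the other way: 6 of 34 were higher at 3 h and 15 at 6 h (against 1.46 and 5.66% of all features), and 30 were lower at 24 h, when 27 of 29 G1/S genes were lower too (against 26.1% of all features). No vehicle library is shared between times.

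**Figure D4:**
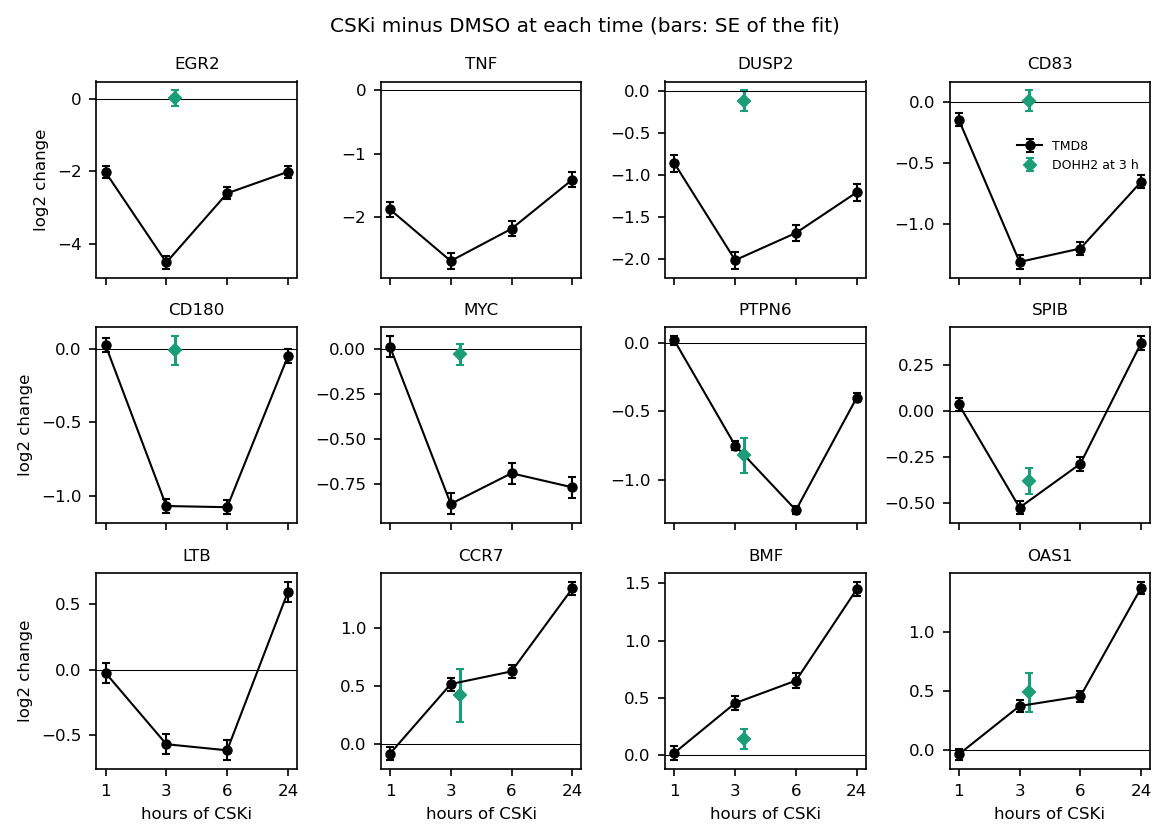
Change after CSKi (log2, CSKi minus DMSO) at 1, 3, 6 and 24 h in TMD8 (black) and at 3 h in DOHH2 (green diamonds, placed beside the 3 h point) for 12 genes, with bars for the SE of the fit. The DOHH2 point is left out for TNF and LTB, which had a mean log2 under 5 there. EGR2, TNF and DUSP2 are lowest at 3 h, and CCR7, BMF and OAS1 are highest at 24 h.

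The lines differed in 6 of the 12 largest falls. In DOHH2, which is classed with germinal centre B cells, 694 of the same features were called at 3 h (5.78%), 381 lower (3.17%) and 313 higher (2.6%). These DOHH2 calls came from a fit of all 32 libraries, which called 217 in TMD8 at 3 h, 170 lower and 47 higher. The overlaps set them against the 563 called in the fit of TMD8 libraries, so the counts of the lines are not on equal terms. Of the 387 lower in TMD8, 54 were lower in DOHH2 (14.0% of the TMD8 list and 14.2% of the DOHH2 list) and 8 higher, and of the 176 higher, 32 were higher (18.2 and 10.2%) and 4 lower. Their medians in DOHH2 were -0.08 and 0.14. A direct test of the line difference called 149 features (1.24%), 50 of them among the 387 lower in TMD8 and 8 among the 176 higher. Of the 12 largest falls EGR2, IL10, TNF, EGR1, CD69 and DUSP2 passed it. IL6, ASTL, BIK, PDCD1, EGR3 and NR4A1 did not (adjusted p of 0.088 to 0.97), and BIK changed by -1.41 in DOHH2 against -1.58 in TMD8. The line difference was still -1.46 ± 0.45 for IL6 and -1.79 ± 0.95 for ASTL. Not passing the test therefore does not show that these genes act alike in both lines. EGR2 had 6.79 and 6.77 in DMSO and 6.86 and 6.74 after CSKi in DOHH2 at 3 h, a change of 0.02 ± 0.21, though at 1 h it had gone from 8.76 and 9.09 to 6.10 and 6.53 there. DUSP2 (-0.11), CD83 (0.01), CD180 (-0.01), MYC (-0.03), RGS2 (0.52), NFKBID (0.30) and CD69 (0.87) in DOHH2 also differed from TMD8 in that test. TNF and IL10 had at most 1.49 in any DOHH2 library at 3 h, a level of a few reads, so that their line difference compares a fall with a gene that was nearly silent. Of the 563 called features 60 had a mean log2 under 5 in DOHH2.

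Some of the 3 h response was common to both lines. PTPN6 went from 12.08 and 12.10 to 11.26 and 11.28 in DOHH2 (-0.82 ± 0.13), against -0.75 in TMD8. EEIG1 rose by 0.78 in DOHH2 and 0.75 in TMD8, and MBNL2 by 0.80 and 0.66. PDCD1 (-0.95), SPIB (-0.38), CD72 (-0.84) and BCL2A1 (-0.47) were called lower in DOHH2 as well. The line difference of these 7 genes did not pass the test, which does not show that the lines act alike. DOHH2 spread is set in part by its 24 h libraries, whose duplicates stand apart (r = 0.992 and 0.991, against 0.995 to 0.996 at the other times), and without these 4 libraries 568 features differed between the lines in place of 149.

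**Figure D5:**
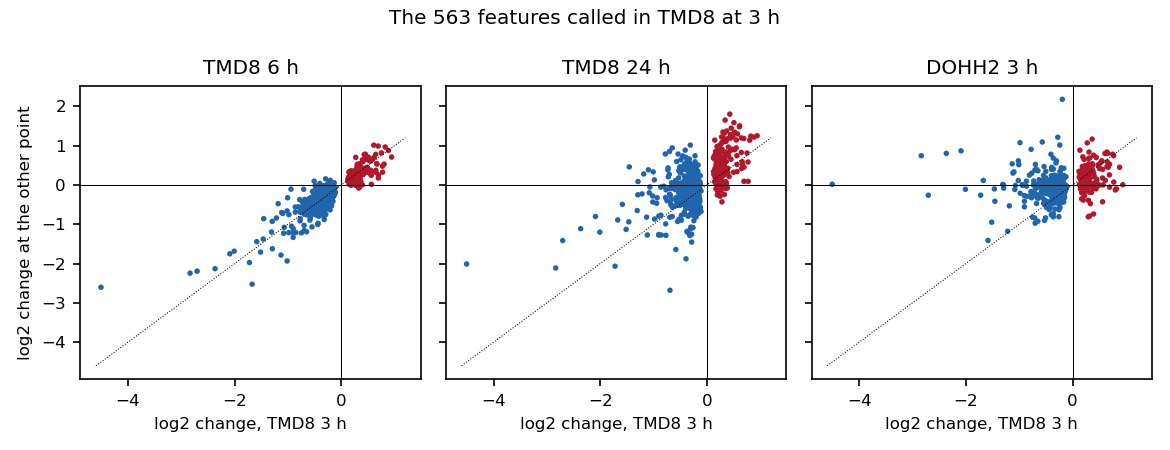
Change of the 563 features called in TMD8 at 3 h (horizontal axis, log2) against their change in TMD8 at 6 h, in TMD8 at 24 h and in DOHH2 at 3 h (vertical axes, log2). Blue points were lower and red points higher at 3 h, and dotted lines mark equal change. Points lie near the dotted line at 6 h, spread across 0 for lower features at 24 h, and centre near 0 in DOHH2 (medians -0.08 and 0.14).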

How the data were processed

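RNA of 32 libraries was sequenced (TruSeq stranded mRNA, per the labels' protocols). The submitters' processing notes name hg19 and HTSeq. The aligner and the version and strand setting of HTSeq were not stated in the labels. The values the authors deposited are log2 of read counts multiplied by 1 factor per library, as the values show, and the origin of the factor was not stated in the labels. Dividing by the value of 1 read gave whole reads (within 0.1, up to 300 reads) for nearly all values. The row that holds each library's mapped reads entered no test.

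Of 25066 features, the 12017 with a mean of 5 or more over the 4 TMD8 3 h libraries were tested. None was at 0 in any of these libraries. Just inside that minimum were LOC100288572, SLC12A3 (5.002) and TBC1D19 (5.003), and just outside DCDC2B, ABCG2 (4.997) and LOC643637 (4.996). HBEGF, with 21 and 24 reads in DMSO and 2 and 5 after CSKi, lay outside. Gene IDs of 11528 members matched a RefSeq symbol.

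limma 3.58.1 in R 4.3.3 fitted group means of the 16 TMD8 libraries, with eBayes(trend=TRUE) and two-sided tests adjusted by Benjamini-Hochberg, and called features at adjusted p under 0.05. Differences of response between times used the same fit. DOHH2 changes at 3 h and differences between lines used a fit of all 32 libraries. The rule for naming took the 12 largest falls and rises with groups that do not overlap, up to 4 called members per list by smallest p, and CSK and LYN. Of these 130 genes 129 were called. Other members of the 40 lists, BBC3, XBP1 and NFKBIA among them, and genes given as not called were added after their values were seen. The members and lists were chosen with earlier results of these data known. The alternatives changed the filter, the threshold, the scaling, the variance model or the libraries fitted, added a replicate block, or dropped each library, and, chosen after the data were seen, leaving out the DOHH2 24 h libraries. Fits were tested on simulated data. Duplicates differed by more than sampling noise, with a chi-square per degree of freedom of 1.39 in DMSO and 1.51 after CSKi. Tables and figures were made with Python 3.11.15, pandas 2.3.3 and matplotlib 3.10.9. Some list members are not reported here.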

Additional observations from a re-analysis of the deposited data

Results flagged for a closer look

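Responses that differed between times or lines by limma's test of the difference itself (adjusted p under 0.05) are given here as differences on the log2 scale for the genes with the 12 largest falls and rises at 3 h. Over all features, the 3 h response differed from that at 1 h in 201, from that at 6 h in 48 and from that at 24 h in 4317, and from that of DOHH2 at 3 h in 149.

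Against 1 h, the 3 h response was lower in EGR2 (-2.48), IL10 (-2.20), BIK (-2.01), ASTL (-1.78), PDCD1 (-1.30), DUSP2 (-1.15), EGR1 (-1.11) and TNF (-0.82). It was higher in OSR2 (1.10), MBNL2 (0.89) and EEIG1 (0.53). Against 6 h, EGR2 alone of the 24 genes differed (-1.90). Against 24 h, the response was lower in EGR2 (-2.49), NR4A1 (-1.91), TNF (-1.29), CD69 (-1.29), EGR1 (-1.25), BIK (-1.09), DUSP2 (-0.81) and IL10 (-0.72), and higher in ARRDC3 (0.60). NR4A1 thus had a change of -1.46 at 3 h and 0.46 ± 0.22 at 24 h, the latter not called (adjusted p = 0.087 by limma).

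Against DOHH2 at 3 h, the TMD8 response was lower in EGR2 (-4.53), IL10 (-3.58), EGR1 (-3.17), CD69 (-2.96), TNF (-2.44) and DUSP2 (-1.90). CD69 had 8.60 and 8.72 in DOHH2 DMSO and 9.55 and 9.52 after CSKi there. It was read less well in TMD8 at 3 h, with 51 and 47 reads in DMSO and 12 and 14 after CSKi. IL10 and TNF were at or near 0 in DOHH2.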

How the results depend on the processing

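Counts depended on the estimate of spread far more than on scaling. Of 129 called genes followed through the alternatives, 56 stayed called under every alternative and 49 lost the call without at least 1 library. Of 2328 alternative values for these and the other genes followed 268 lost the call and 0 changed direction. Scalings moved the median change of all features to between 0.00 and 0.02. Counts are given in the order called, higher and lower at 3 h, then responses differing from 1 h, 6 h and 24 h, then between lines. With no filter, higher was 105, and differences from 1 and 6 h 121 and 10. At adjusted p under 0.01 they were 307, 69, 238, 111, 19, (24 h within 1.5 times) and 60. At 1.5-fold they were 85, 17, 68, 63, 6, 1144 and 59. Without a variance trend they were 332, 94, 238, 107 and 9. With only the groups compared they were 1193, 523, 670, 321, 301 and (lines) 521, and with all 32 libraries 217, 47, 170, 41 and 8. Leaving out 1 of the 4 libraries gave 253 to 311 called, 50 to 78 higher, 195 to 233 lower, 113 to 139 differing from 1 h, 11 to 21 from 6 h, and 66 to 84 between lines. Without the DOHH2 24 h libraries 568 differed between lines. Of all calls 68.7% were lower, 61.7% with total mapped and 74.7% with median of ratios scaling, and 56.2% with only the groups compared. voom on recovered reads called 624.

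The labels tie no culture or day to the replicate number. Deviations of same-numbered TMD8 libraries correlated at -0.003 at 3 h and at 0.075, 0.044 and 0.166 at 1, 6 and 24 h, so that 24 h alone was over 0.1, and the number was not taken as a pairing. A replicate block called 1051, 446 higher and 605 lower, and 452 against 1 h, 242 against 6 h and 76 between lines.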

Other observations

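Of the 563 called features, 397 belonged to none of the gene lists, 257 lower and 140 higher. The genes below were chosen after their values were seen, as those with the smallest p among these. SEMA7A, a membrane semaphorin, fell from 11.73 and 11.82 to 10.60 and 10.53 (-1.22 ± 0.05, 2.32-fold), and it was lower in DOHH2 as well (-1.18). DHRS9, a retinol dehydrogenase, fell from 11.63 and 11.50 to 10.72 and 10.60 (-0.90 ± 0.07) and reached -1.33 at 6 h. IL4I1, a secreted amino acid oxidase, went from 8.53 and 8.47 to 7.59 and 7.61 (-0.90 ± 0.10). TRAFD1 (-0.64 ± 0.04), PTPRCAP (-0.58 ± 0.04), which binds the phosphatase CD45, MPEG1 (-0.37 ± 0.03), a pore-forming protein, and ENDOV (-0.44 ± 0.04) were also lower. MPEG1 was higher at 24 h (0.58), as was LBH (-0.41 at 3 h and 0.52 at 24 h).

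Among the rises outside the lists, NCOA3, a nuclear receptor coactivator, went from 13.47 and 13.51 to 13.73 and 13.81 (0.28 ± 0.04). The magnesium transporter SLC41A1 (0.24 ± 0.03) and BCL7A (0.38 ± 0.05), a chromatin remodelling subunit, rose too. KLHL24 rose by 0.52 at 3 h and was at 0.90 at 24 h, and YPEL3 by 0.40 and 1.18. In DOHH2 at 3 h neither was called (KLHL24 0.56, adjusted p = 0.11, and YPEL3 0.76, adjusted p = 0.26, by limma).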
